A study of Homo sapiens with 4 samples.

Results

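The c-Jun N-terminal kinase (JNK) module was described gene by gene from chromatin immunoprecipitation with sequencing (ChIP-seq) of the transcription factor SPIB. The module was taken as 9 listed genes, namely the JNK kinase genes MAPK8, MAPK9 and MAPK10, the kinase genes MAP2K4 and MAP2K7 that act on them, and the scaffold genes MAPK8IP1, MAPK8IP2, MAPK8IP3 and SPAG9, of 20037 protein-coding genes in all. A called peak was given to a gene when its summit lay in the gene's RefSeq span on GRCh38 or within 5 kb of that span. The genes were chosen by pathway with the peak calls of these same libraries known (where peaks lay and their tags, fold and FDR), so the counts of genes with a peak and the strength of those peaks are given as a description without a test.

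The cells were H1703, an established human lung squamous carcinoma line, that overexpressed SPIB, an ETS-family factor that acts in B cells and in plasmacytoid dendritic cells. Cells kept in suspension gave 1 ChIP and 1 input library (sonicated DNA without immunoprecipitation), and attached cells gave 1 of each. SPIB overexpression was shared by both conditions, the ChIP antibody was anti-FLAG M2, and no library of cells without the introduced SPIB is among the 4. The treatment text of the labels gives 24 h in suspension for every library, attached ones included, so libraries were told apart by their condition label. Expression was not measured here, so the cell type was not checked against marker genes. The ChIP libraries held 20766909 filtered tags from suspended and 21108364 from attached cells, and their inputs held 21437074 and 15878452 tags. The authors' lists held 9024 suspended and 462 attached peaks. With 1 ChIP library per condition there is no replicate check, and the intervals printed here reflect counting error alone.

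JNKs are stress-activated kinases at the end of a relay in which MAP3K kinases activate MAP2K4 and MAP2K7, and these phosphorylate the JNK activation loop. JNKs then phosphorylate transcription factors such as JUN, and they have been tied to apoptosis, to autophagy and to the response of epithelial cells to loss of attachment. The JIP scaffolds hold the kinases of the relay together. They also link vesicles to motor proteins, MAPK8IP1 and MAPK8IP2 (JIP1 and JIP2) mainly in neurons and endocrine cells, and MAPK8IP3 and SPAG9 (JIP3 and JIP4) in the transport of endosomes and lysosomes.

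The DNA just before the start of 6 of these genes is shown first, because most of the peaks at the gene ends lay beside these stretches. Each is the 250 bases before the annotated start, read 5′ to 3′ along the gene from the RefSeq table of GRCh38.p14, with the ETS core GGAA and its reverse complement TTCC in capitals. The first 5 genes had a suspended summit less than 1 kb from the start, and MAPK8IP3 had no peak. Start windows were matched for 8 of the 9 genes, all but MAPK8IP1.
MAPK8, chr10:48306427-48306676, plus strand: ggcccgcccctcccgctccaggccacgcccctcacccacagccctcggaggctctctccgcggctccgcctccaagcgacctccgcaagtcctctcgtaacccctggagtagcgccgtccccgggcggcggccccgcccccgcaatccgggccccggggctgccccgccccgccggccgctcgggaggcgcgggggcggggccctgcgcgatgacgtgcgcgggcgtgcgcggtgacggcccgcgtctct
MAP2K4, chr17:12020627-12020876, plus strand: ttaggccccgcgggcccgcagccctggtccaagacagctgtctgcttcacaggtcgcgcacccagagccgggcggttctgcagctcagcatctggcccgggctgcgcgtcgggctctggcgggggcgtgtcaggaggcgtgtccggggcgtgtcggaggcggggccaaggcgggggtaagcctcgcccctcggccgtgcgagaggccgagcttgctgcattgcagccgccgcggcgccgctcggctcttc
MAP2K7, chr19:7903627-7903876, plus strand: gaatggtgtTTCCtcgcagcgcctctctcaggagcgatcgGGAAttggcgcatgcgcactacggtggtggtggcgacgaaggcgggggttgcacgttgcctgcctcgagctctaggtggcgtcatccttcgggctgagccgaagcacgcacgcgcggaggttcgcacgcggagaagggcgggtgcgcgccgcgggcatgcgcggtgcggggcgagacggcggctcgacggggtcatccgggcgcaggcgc
MAPK8IP2, chr22:50600543-50600792, plus strand: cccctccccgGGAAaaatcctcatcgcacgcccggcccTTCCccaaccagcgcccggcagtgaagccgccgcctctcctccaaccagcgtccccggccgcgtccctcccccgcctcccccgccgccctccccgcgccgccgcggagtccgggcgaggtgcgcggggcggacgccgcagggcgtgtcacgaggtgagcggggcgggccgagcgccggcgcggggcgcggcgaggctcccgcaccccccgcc
SPAG9, chr17:51120869-51121118, minus strand: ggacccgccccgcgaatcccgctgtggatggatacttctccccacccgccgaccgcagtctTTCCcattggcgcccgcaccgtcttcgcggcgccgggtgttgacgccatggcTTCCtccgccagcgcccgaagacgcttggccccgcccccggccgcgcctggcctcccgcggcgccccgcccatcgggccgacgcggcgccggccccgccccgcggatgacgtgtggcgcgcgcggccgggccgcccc
MAPK8IP3, chr16:1705945-1706194, plus strand: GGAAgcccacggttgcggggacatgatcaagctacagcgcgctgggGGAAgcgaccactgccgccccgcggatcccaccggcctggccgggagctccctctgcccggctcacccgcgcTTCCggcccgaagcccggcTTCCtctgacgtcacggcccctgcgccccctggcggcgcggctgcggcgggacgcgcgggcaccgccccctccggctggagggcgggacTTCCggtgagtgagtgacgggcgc

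Among the 5 genes with a stranded start and a suspended peak beside it, the called peak lay outside the window in every case, at a gap of 25 bp for MAPK8IP2, 58 bp for MAPK8, 99 bp for SPAG9, 103 bp for MAP2K4 and 125 bp for MAP2K7. The windows therefore show the neighbouring sequence and not the sequence under the summit. They were rich in G and C, at 70.8% for MAP2K7, 74.0% for MAP2K4, 78.8% for SPAG9, 80.4% for MAPK8 and 81.2% for MAPK8IP2, against a median of 62.0% over 22197 windows of protein-coding genes. Each held 30 to 43 CpG dinucleotides, where the median window held 16. The MAPK8IP3 window, at 76.4% GC and 33 CpG, was alike in composition although that gene had no peak.

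The GGAA core, counted on both strands, occurred 5 times before MAPK8IP3, in 2 places each before MAP2K7, MAPK8IP2 and SPAG9, and not at all before MAPK8 and MAP2K4. It occurred in 92.5% of all such windows, with a median of 3 matches. The longer GGAAGT, which contains the core, was found in the MAPK8IP3 window once and in none of the other 5 shown, against 20.5% of all windows. GAGGAAGT, which contains both shorter motifs, was in none of the 6 windows and in 2.23% of all windows. These are matches of letters in windows that no called peak of these genes overlapped, and they say nothing of where SPIB was bound.

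One stretch of sequence from under a peak could be read, the 38 bases at the edge of the MAP2K7 peak that also belong to the start window of the lncRNA gene LOC124904630 on the other strand. It held no GGAA and no TTCC.
Stretch of the MAP2K7 peak, chr19:7903465-7903502, minus strand: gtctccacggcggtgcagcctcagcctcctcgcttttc

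A peak was called at 7 members in suspended cells and at 2 in attached cells. In suspended cells the 7 of 9 genes held 13 peaks, where 28.6% of all protein-coding genes had a peak, 29.7% of those spanning 10 to 100 kb and 41.6% of those spanning 100 to 1000 kb. In attached cells MAPK8IP1 and MAPK8IP2 held 1 peak each, where 1.86% of protein-coding genes had one, 1.65% of those spanning 10 to 100 kb and 3.35% of those spanning 100 to 1000 kb. Since peak calls of these lists led to the choice of genes, nothing is read from the members' counts against these shares. MAPK10 and MAPK8IP3 had no peak in either list.

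**Figure D1:**
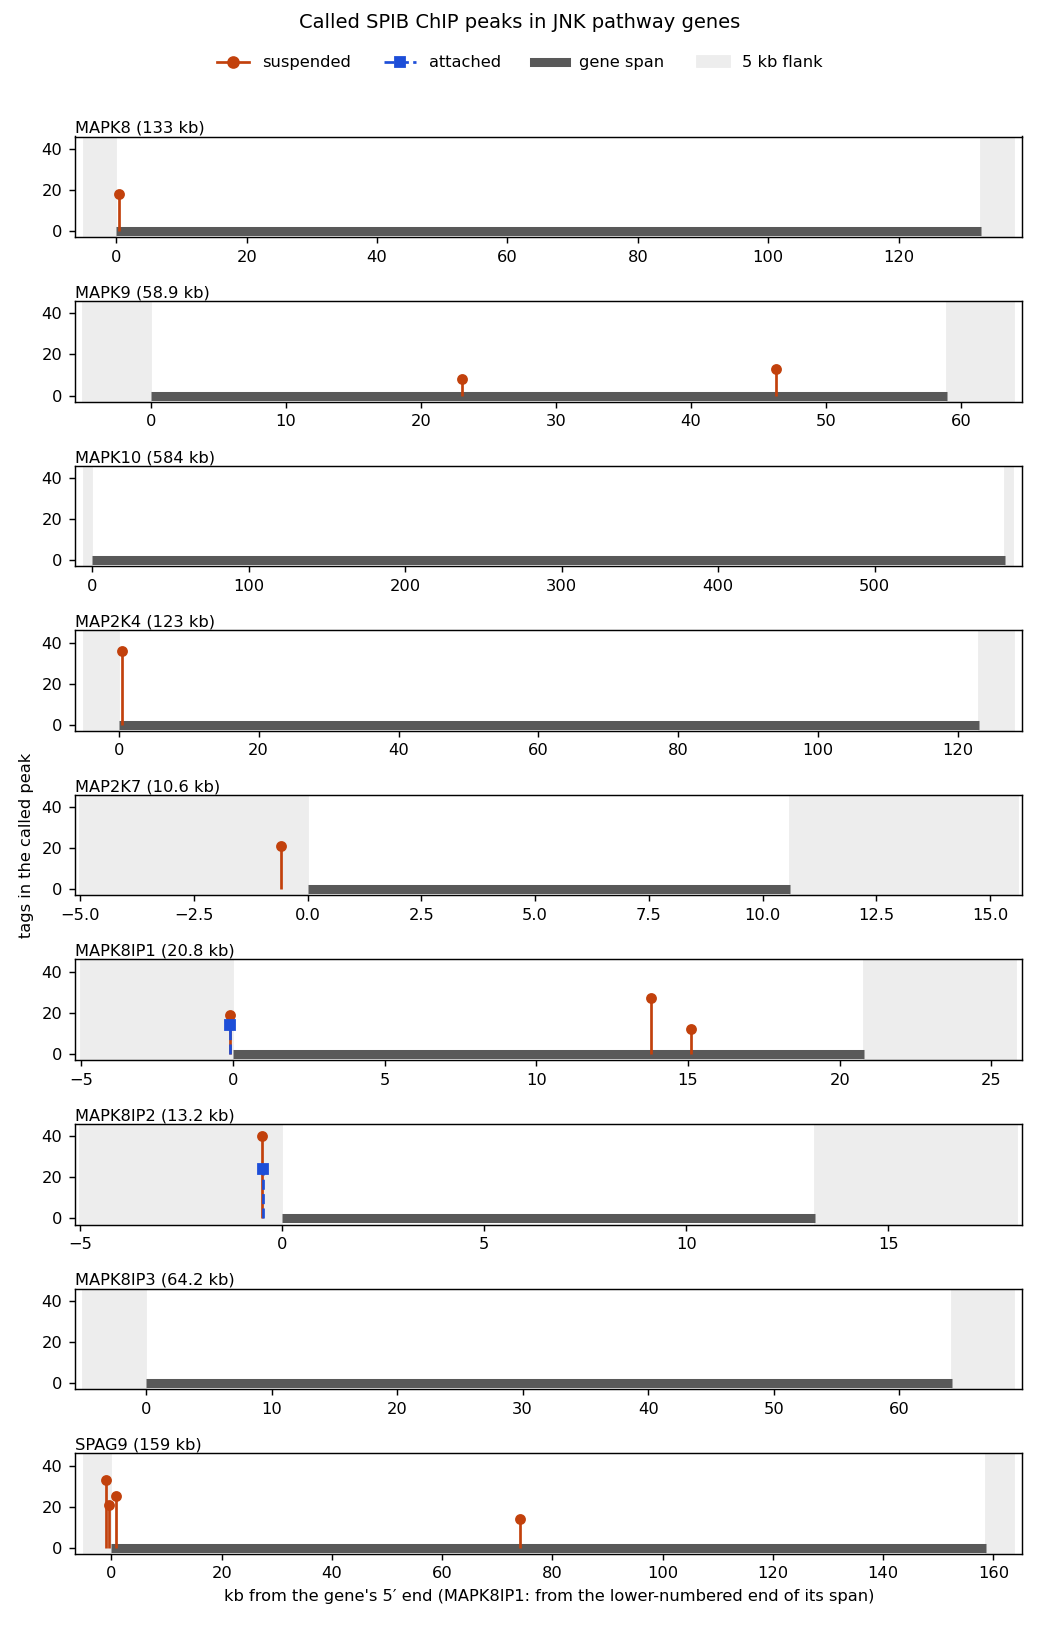
Called peaks along the 9 genes, each on its own scale in kb from the 5′ end of the gene (for MAPK8IP1, from the lower-numbered end), with the height of a stem giving the tags of the called peak. Suspended peaks (circles) stand at the 5′ end of MAPK8, MAP2K4, MAP2K7, MAPK8IP2 and SPAG9 and at an end of MAPK8IP1, and attached peaks (squares) at MAPK8IP1 and MAPK8IP2.

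The 3 JNK kinase genes held 39 tags in 3 suspended peaks, the 2 MAP2K genes 57 tags in 2 peaks, and the 4 scaffold genes 191 tags in 8 peaks. These totals are not adjusted for the number or length of the genes or the width of the peaks, and the groups are not compared on them. MAPK8, which encodes the widely expressed JNK1, lies on chromosome 10 from 48306677 to 48439360 on the plus strand and spans 133 kb. Its suspended peak, at chr10:48306734-48307084, held 18 tags (95% Poisson interval 10.7 to 28.4) in 351 bp, at the authors' fold of 6.51 and false discovery rate (FDR) of 4.12%. The summit lay 345 bp downstream of the annotated start, and no other gene of the table lay within 5 kb of it. No attached peak was called in MAPK8, and the nearest attached summit lay 958784 bp from its span.

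MAPK9, which encodes JNK2, lies on chromosome 5 from 180233143 to 180292083 on the minus strand. It held 2 suspended peaks, both well inside the gene and away from its start. The first, at chr5:180245618-180245886, held 13 tags (6.92 to 22.2) at a fold of 8.40 (FDR 4.95%). The second, at chr5:180269006-180269167, held 8 tags (3.45 to 15.8) in 162 bp, at a fold of 14.9 and an FDR of 5.36%. It had the fewest tags and the narrowest region of the 13, and also the second-highest fold among them, so its fold rests on the smallest count. The nearest annotated starts of MAPK9 lay 34830 and 11547 bp from these summits. The window at the outer start of MAPK9, with 77.6% GC, had no peak beside it.

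MAPK10 encodes JNK3, the JNK of brain, heart and testis. It is the longest of the 9 genes, on chromosome 4 from 86010405 to 86594074, a span of 584 kb. It held no peak in either condition. The nearest suspended summit lay 211859 bp outside it. Its 3 annotated start windows held 30, 31.6 and 54.0% GC, all below the median window. The gene is on the minus strand, and these starts (86354644, 86370867 and 86360053) lie well inside the span. No window was matched at the higher-numbered end of the span, so GC there was not measured.

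Both MAP2K genes had a peak near the start in suspended cells and none in attached cells. MAP2K4 (MKK4, which also acts on p38 kinases) lies on chromosome 17 from 12020877 to 12143828. Its peak, at chr17:12020979-12021544, held 36 tags (25.2 to 49.8) over 566 bp, the widest of the 13, at a 4.59-fold enrichment (FDR 1.88%). The summit lay 408 bp downstream of the MAP2K4 start and also inside ZNF18, a zinc finger gene on the minus strand. It was 242 bp from the 5′ end of the ZNF18 span and 23810 bp from the nearest annotated ZNF18 start. Position therefore does not tell which gene the peak belongs to. The fold was the lowest of the 13.

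MAP2K7 (MKK7, which acts on JNKs) lies on chromosome 19 from 7903877 to 7914478, the shortest span of the 9 at 10.6 kb. Its peak, at chr19:7903143-7903502, held 21 tags (13 to 32.1), at a 6.74-fold enrichment (FDR 4.37%). The summit lay 584 bp upstream of the MAP2K7 start, inside LOC124904630 and 221 bp downstream of that lncRNA gene's own start on the minus strand. The volume-regulated anion channel gene LRRC8E ended 1277 bp from it.

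The scaffold genes held the members' highest-scoring peaks and the only ones called in both lists. MAPK8IP2 lies on chromosome 22 from 50600793 to 50613978 on the plus strand. It had 40 tags (28.6 to 54.5) in a suspended peak at chr22:50600099-50600518, and 24 tags (15.4 to 35.7) in an attached peak at chr22:50600129-50600463. The suspended peak had a fold of 20.75, rank 64 of 9024, and an FDR of 0%, and the attached one a fold of 15.67, rank 215 of 462, and an FDR of 33.33%. The summits lay 511 and 484 bp upstream of the MAPK8IP2 start, 27 bp apart, with no other gene within 5 kb.

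MAPK8IP1 lies on chromosome 11 from 45885651 to 45906465. At its lower-numbered end it had 19 tags (11.4 to 29.7) in a suspended peak at chr11:45885390-45885675, and 14 tags (7.65 to 23.5) in an attached peak at chr11:45885445-45885618. The suspended fold was 12.87 at an FDR of 0.79%, and the attached fold 17.24 at an FDR of 100%. The summits lay 95 and 91 bp outside the gene, 4 bp apart, and 2312 and 2316 bp beyond the end of the circadian clock gene CRY2. Fold is set against the local background of each condition's own input, so the 2 folds are not on one scale and were not compared.

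At neither site was the difference between conditions larger than counting error. Tags per filtered ChIP tag were 1.69 times as high in suspended as in attached cells at MAPK8IP2 (exact conditional 95% interval 0.997 to 2.94) and 1.38 times as high at MAPK8IP1 (0.656 to 2.97). Both intervals include a ratio of 1, and the median over all 212 pairs of overlapping peaks was 1.36. The suspended region was the wider at both, 420 against 335 bp at MAPK8IP2 and 286 against 174 bp at MAPK8IP1. Per bp of peak the ratios were 1.35 (0.795 to 2.34) and 0.839 (0.399 to 1.81), with a median of 1.10 over all pairs, so at MAPK8IP1 the direction turned with the width of the called region. Of all protein-coding genes, 1.02% had such a pair of overlapping peaks inside them or less than 5 kb away.

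**Figure D2:**
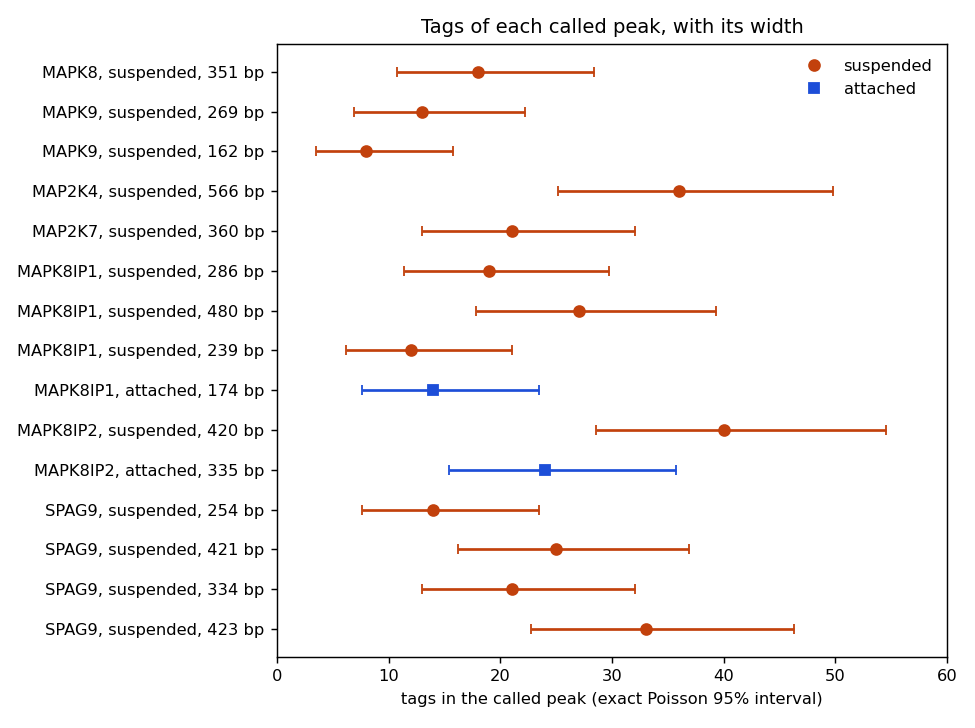
Tags in each called peak of the 9 genes with exact Poisson 95% intervals, suspended (circles) and attached (squares), and the width of the called region beside the gene name. The intervals of suspended and attached peaks overlap at MAPK8IP1 and at MAPK8IP2.

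MAPK8IP1 held 2 further suspended peaks inside the gene, without an attached counterpart. The peak at chr11:45899299-45899778 held 27 tags (17.8 to 39.3) at a 4.99-fold enrichment (FDR 5.85%), and the peak at chr11:45900638-45900876 held 12 tags (6.20 to 21.0) at a 9.56-fold enrichment (FDR 5.80%). The first summit lay inside the lncRNA gene LOC124902668, 103 bp from an end of it, and the second 1207 bp outside it. Both were among the weakest peaks of the suspended list by score, at percentiles 7.88 and 8.89.

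SPAG9, also a tumour-associated antigen, held the most peaks of any member. It lies on chromosome 17 from 50962174 to 51120868 on the minus strand, so its start is at the higher-numbered end. Of its 4 suspended peaks 3 stood around the start, with summits 921 and 438 bp upstream and 870 bp downstream. They held 33 tags (22.7 to 46.3) at chr17:51121685-51122107, 21 tags (13 to 32.1) at chr17:51121217-51121550 and 25 tags (16.2 to 36.9) at chr17:51119814-51120234, at folds of 6.01, 6.24 and 6.48 and FDRs of 2.40, 4.51 and 1.77%. The 250 bases before the start, printed above, lay between called peaks on either side. The last peak, at chr17:51046500-51046753 and 74194 bp into the gene, held 14 tags (7.65 to 23.5) at a fold of 6.30. Among protein-coding genes, 0.779% held 4 or more suspended peaks. That share covers genes of all lengths, while SPAG9 spans 159 kb and was chosen with its peaks known, so nothing is read from it. The nearest attached summit lay 3861945 bp from the span of SPAG9.

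MAPK8IP3, which encodes the scaffold most closely related to SPAG9, lies on chromosome 16 from 1706195 to 1770351. It held no peak in either condition. The nearest suspended summit lay 98087 bp outside it, although 20 suspended peaks fell within 1 Mb of its ends.

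The 13 suspended peaks were wider than most of the list but not of higher fold. Their median width was 351 bp against 252 bp over all 9024 peaks, and 11 of them exceeded that value. Their median tags were 21 against 15, and their median fold was 6.51 against 9.10, with 4 of 13 above the median of the list. Per 100 bp of peak they held 4.83 to 9.52 tags, with a median of 5.83 against 5.74. MAPK8IP2 was the densest, at 9.52 tags per 100 bp, and a MAPK9 peak the sparsest, at 4.83.

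**Figure D3:**
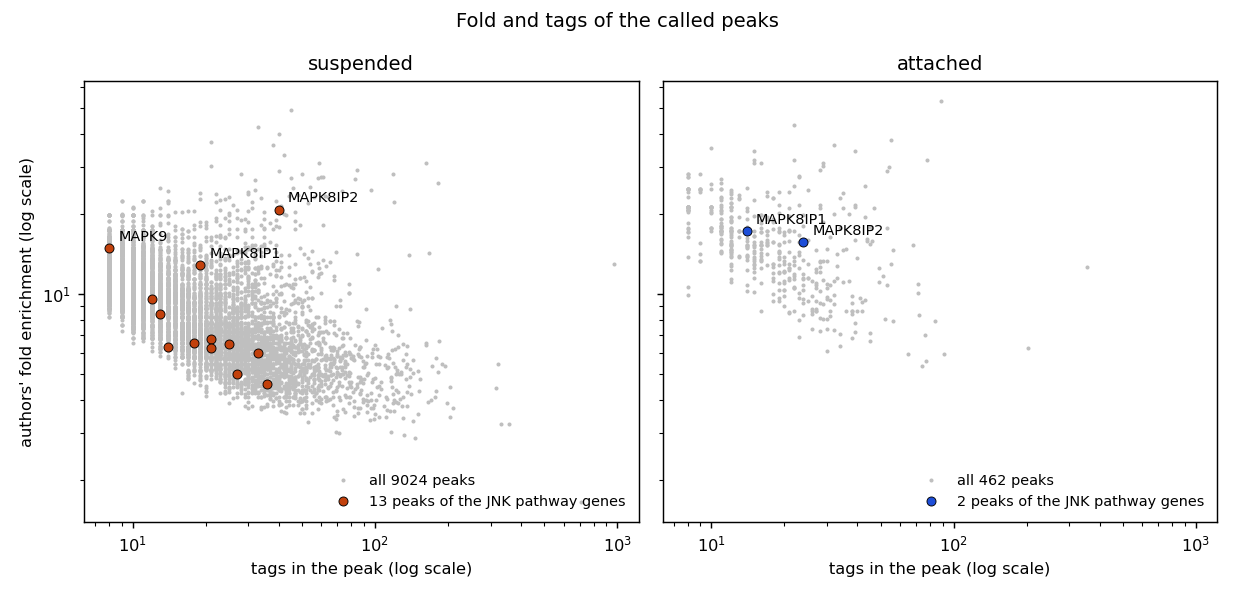
The authors' fold enrichment against tags for all called peaks (grey) and for those of the 9 genes (coloured), in suspended (left) and attached cells (right), both axes logarithmic. The suspended peak of MAPK8IP2 lies apart from the other 12, with 40 tags at a fold of 20.75, while most of the rest lie at folds of 4.59 to 9.56.

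Peaks stood close to the ends of the genes in 6 of the 7 members that had one. These were MAPK8, MAP2K4, MAP2K7, MAPK8IP1, MAPK8IP2 and SPAG9, with a suspended summit within 1 kb of a gene end, as in 48.3% of the 5733 protein-coding genes with a suspended peak and 13.8% of all protein-coding genes. By summit, 8 of the 13 lay there, where 40.2% of the 6564 suspended summits in or near a protein-coding gene did. Both attached summits did, at MAPK8IP1 and MAPK8IP2, where 43.5% of protein-coding genes with an attached peak, 0.809% of all of them and 45.1% of the 308 attached summits in or near one did. As with the counts of genes, nothing is read from these shares. For the 7 suspended summits beside a start of known strand, 4 were upstream and 3 downstream, at 345 to 921 bp. None of these 7 fell between 250 bp upstream and 49 bp downstream of the start. That interval held 29.7% of the 2317 suspended summits within 1 kb of a protein-coding start. Of the same 2317 summits, 18.1% lay farther upstream than the interval and 52.1% farther downstream. Since 3 of the 7 are SPAG9 peaks around 1 start, nothing is read from their split against these shares. The other summit, 95 bp outside the lower-numbered end of MAPK8IP1, is not among the 7 because no start or strand was matched for that gene; it would fall inside the interval if that end is the start. The table gives no exons or UTRs, so summits inside genes were not assigned to them.

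**Figure D4:**
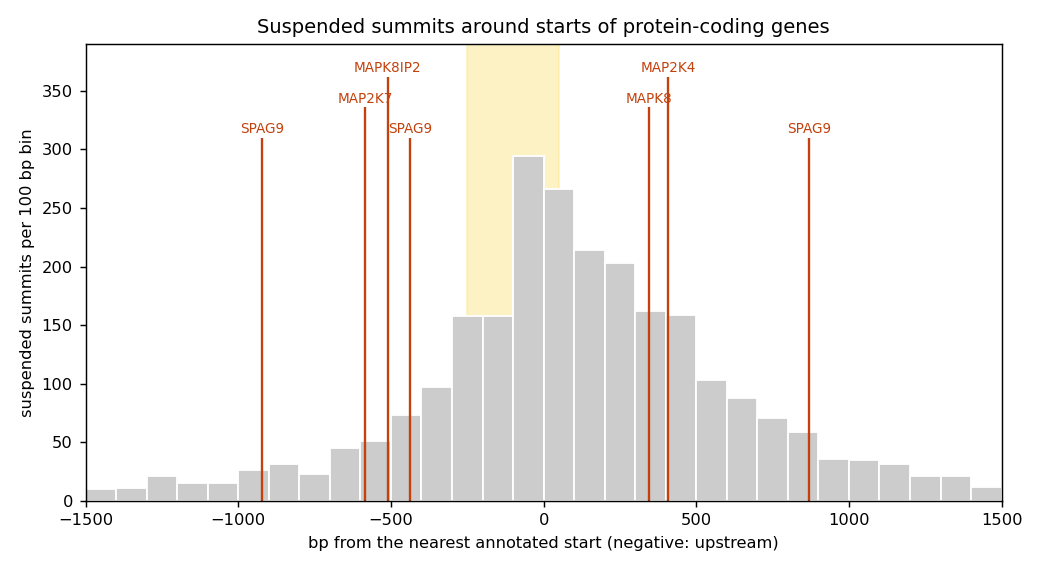
Suspended summits per 100 bp bin around the nearest annotated start of a protein-coding gene (grey bars), with the 7 summits of the JNK pathway genes within 1 kb of their own starts (lines). The shaded band runs from 250 bp upstream to 50 bp downstream of the start, and all 7 lines stand outside it, while the MAPK8IP1 summit, 95 bp outside a gene end with no matched start, is not drawn.

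No suspended summit lay between 921 and 6291 bp outside a member, so the limit of 5 kb fell in a gap. The outermost assigned summit lay 921 bp outside a gene, at SPAG9. The nearest one left out lay 6291 bp beyond MAP2K7 (39 tags, fold 4.78), and the next 8093 bp from MAPK9 (11 tags, fold 11.34).

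The genes differed in how crowded their surroundings were with suspended peaks. SPAG9 had 16.2 peaks per Mb from 1 Mb before to 1 Mb after the gene, more than 95.3% of protein-coding genes, and MAPK9 had 12.6, more than 90.5%. MAPK8IP3, which had no peak, had 9.69. MAP2K7 and MAPK8IP2 had 6.96 and 6.46, MAPK8IP1 4.45 and MAP2K4 3.77, near the median of 4.07 over all protein-coding genes. MAPK8 and MAPK10 were lowest, at 2.81 and 2.71. These counts include the gene's own peaks, which were 4 of 35 for SPAG9, 2 of 26 for MAPK9 and 3 of 9 for MAPK8IP1. What part the crowding has in the peaks of SPAG9 and MAPK9 was not tested.

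Other genes of the pathway were counted in fixed lists, of which 33 of 76 genes (43.4%) had a suspended and 2 (2.63%) an attached peak, against 28.6% and 1.86% of all protein-coding genes. Upstream of MAP2K4 and MAP2K7, 15 of 25 MAP3K and MAP4K genes (60%) had a suspended peak. The highest folds were in TAOK3 (15.93, with 10 tags), MAP3K21 (12.60, with 44 tags) and MAP3K5 (11.95, with 10 tags), which encodes the oxidative stress kinase ASK1. MAP3K21, a mixed-lineage kinase gene, was also the one gene of the 25 with an attached peak, of 25 tags at a fold of 11.49 and an FDR of 37.11%. Its suspended summit lay 295 bp outside the gene and within 5 kb of PCNX2.

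Among JNK phosphatases and other scaffolds 6 of 16 genes (37.5%) had a suspended peak and none an attached one. The highest folds were in SH3RF1 (14.46, with 8 tags), which encodes the scaffold POSH, and in the JNK scaffold genes WDR62 (11.43, with 10 tags) and MAPKBP1 (9.56, with 11 tags). Of the transcription factor genes that JNK acts on, 4 of 7 (57.1%) had a suspended peak and none an attached one. JUN (11.62, with 17 tags), JUND (9.22, with 16 tags) and ATF7 (7.37, with 20 tags) led by fold. Each of the 4 had a suspended peak within 1 kb of a gene end, as had 48.3% of protein-coding genes with a suspended peak. Over the 5 lists together, 18 of the 33 genes with a suspended peak had one there. Nothing is read from a count of 4 genes.

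The cargo and motor genes of the JIPs had a suspended peak in 4 of 12 cases (33.3%), with KIF5B, the kinesin heavy chain gene (9.33, with 14 tags), LRP8, a reelin receptor gene (8.26, with 19 tags), and KLC2, a kinesin light chain gene (8.26, with 12 tags), the highest by fold. ARF6, a small GTPase gene whose product binds JIP3 and JIP4, had no suspended peak but an attached one of 15 tags (fold 19.70, FDR 100%). The parallel ERK and p38 kinases with their MAP2K genes had a suspended peak in 4 of 16 cases (25%) and an attached one in none. By fold they were led by MAPK11 (12.96, with 38 tags), MAPK14 (8.35, with 12 tags) and MAP2K3 (6.29, with 17 tags). Where a gene of these lists held several peaks, the values are those of its highest-fold peak. MAPK14 also held peaks of 32 and 18 tags, and MAP2K3 peaks of 102, 47 and 30 tags, at lower folds. Ranking by fold passed over DUSP16, the only phosphatase gene of its list with a peak. The DUSP16 peaks held 92 tags at a fold of 3.98 and 33 tags at a fold of 5.73. MAPK7, with 135 tags at a fold of 4.28, was passed over too. Several of the named peaks of these lists also had another gene within 5 kb, so position alone does not give them to a single gene. Examples are JUN (JUN-DT), JUND (MIR3188), ATF7 (TARBP2), MAPKBP1 (MGA), KLC2 (RAB1B) and MAPK11 (PLXNB2). The shares of the lists are not adjusted for gene length and rest on short lists. No list is called apart from the rest on them.

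**Figure D5:**
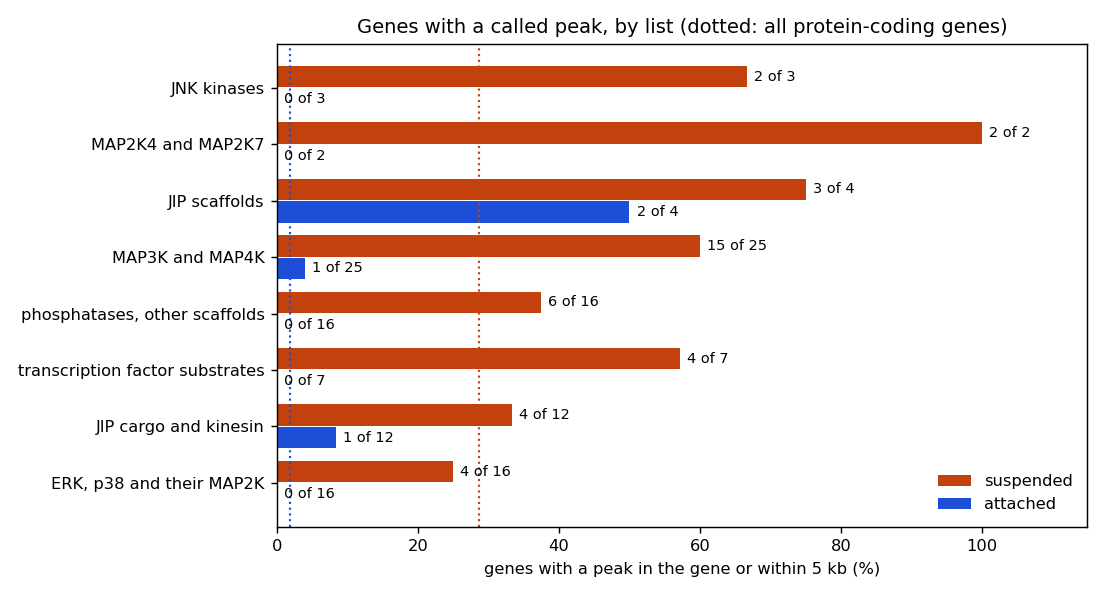
Share of genes that hold a called peak, counting 5 kb on either side, for the 3 groups of members and 5 further lists, in suspended (upper bar) and attached cells (lower bar), with counts beside the bars. Dotted lines mark all protein-coding genes, at 28.6% (suspended) and 1.86% (attached); MAP3K and MAP4K genes stand at 60% and 4%.

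A missing attached call does not show an unbound site. Of the 462 attached peaks 305 (66.0%) had an FDR of 100%. An FDR of at most 5% was met by 25 of the 462 attached and by 6933 of the 9024 suspended peaks. At that limit neither attached peak of MAPK8IP1 and MAPK8IP2 remained, while 7 members kept a suspended peak. Since few attached calls at any gene passed the limit, nothing is read from this about the members.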

How the data were processed

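Per the file headers, the authors ran MACS 1.4.2 once per condition, with that condition's input as control, a p cutoff of 1e-05 and 1 tag kept per position. The build is hg38, per the submitters' processing notes, while the sources used here name no aligner. The deposited lists give tags per peak as an unscaled count, the authors' fold enrichment as a ratio of ChIP to local background, the authors' score as minus 10 times log10 of the p-value (known by its position in the MACS output, as its header was lost), and the authors' FDR as a percent. Fold, score and FDR were ranked or filtered within a list and not compared between lists.

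Summits were set at start plus summit minus 1 and matched to RefSeq spans of GRCh38.p14 (20037 protein-coding genes), with starts and strands from the RefSeq start windows, which cover 23 of 24 chromosomes. Tags carry exact Poisson intervals, and ratios of depth-scaled tags exact conditional binomial intervals. Overlap meant at least 1 bp. Python 3.11.15, numpy 2.4.6, pandas 2.3.3, SciPy 1.17.1 and matplotlib 3.10.9 were used, and the gene assignment was tested on simulated data. The members, the lists and the rule for named genes (all members, the 3 highest folds per list, every attached peak and genes sharing a member's peak window) were chosen with earlier results of these data known. DUSP16 and MAPK7 were named outside that rule, for their tags. Alternatives changed the window, the FDR, the score, the overlap and the distance from a gene end.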

Additional observations from a re-analysis of the deposited data

How the results depend on the processing

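With 1 library per condition no replicate could be left out. No paired analysis was possible because each condition has 1 ChIP library and no result comes from a test. Counting the upper 50% of each list by score left 4 members with 5 suspended peaks (5 of them within 1 kb of a gene end) and 1 member with 1 attached peak, and 19 suspended and 1 attached of the 76 other pathway genes. Counting summits inside the gene span alone left 8 suspended member peaks and 0 attached ones, in 0 members, and 0 attached peaks among the other genes. At an FDR of at most 5%, attached peaks fell to 0 for the members and 0 for the other genes. With that limit 0 member peaks were called in both lists, and 25 of all 462 attached peaks remained. A window of 10 kb gave 4 other genes with an attached peak. Within 500 bp of a gene end 4 suspended member peaks were left. The other alternatives kept counts within 1.5 times those reported. Per bp of peak the ratio was 0.839 at MAPK8IP1, within the counting interval of the main ratio. The median peak of 15 suspended and 18 attached tags limits what can be told apart at 1 site.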
